A study of Mus musculus with 80 samples.

Results

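RNA of Sall4 knockout (KO) mouse embryonic stem (ES) cells transfected with wild-type SALL4A was compared with RNA of Sall4 heterozygous (het) ES cells, to see how close the add-back cells come to the heterozygous line. The comparison uses 2 of the series' 80 samples, KO plus wild type and Sall4 het replicate 1, with 1 library a side, so none of its ratios carries a p-value or a replicate error. The het cells are labelled Sall4flox/-, with 1 floxed and 1 null allele, and the KO cells that received wild-type SALL4A are labelled Sall4 KO. Both libraries, Sall4 KO replicate 1 and KO plus mutant replicate 1 are labelled C57BL/6J. Het, KO and KO plus mutant each have a second library, replicate 2, labelled 129P2/OlaHsd. The mutant cells are KO cells given an altered SALL4A, and the sources used here do not say which residues differ. The growth text describes TT2 ES cells on gelatin with leukaemia inhibitory factor (LIF) and no feeder cells. No label says that any libraries came from separate cultures, how the transgene was driven, or whether a line was 1 clone. The measure was FPKM (fragments per kilobase of transcript, scaled to mapped fragments) in the replicate 1 and add-back libraries and RPKM (reads in place of fragments) in the replicate 2 libraries, so read depth is unknown.

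SALL4 is a zinc finger transcription factor of the spalt-like family that ES cells need for stable self-renewal, and SALL4A is its long isoform. It binds the NuRD chromatin-remodelling complex, and its gene network overlaps that of POU5F1, SOX2 and NANOG. The study also concerns TET enzymes, which oxidise 5-methylcytosine. An add-back line asks which of the differences seen on losing a factor return when it is supplied again. Expression from a transgene need not match the level or timing of the natural alleles.

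The table of KO plus wild type holds 23234 symbols and that of Sall4 het replicate 1 holds 33167, of which 21028 are listed in both. Values of rows with the same symbol were summed. The 2 libraries were scaled by the median ratio of 10690 symbols at 1 or more in both, which as deposited stood at -0.27 on the log2 scale in KO plus wild type over het. Ratios are log2 of scaled value plus 1, which understates the change of low genes, and 8384 symbols at 5 or more in at least 1 library were compared. Expression values quoted for a gene are as deposited.

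Most genes lay close between the libraries. Of the 8384 symbols, 6697 (79.9%) differed by less than 2-fold, and the median absolute log2 ratio was 0.45, a 1.37-fold difference. KO plus wild type was 2-fold or more higher for 595 symbols, 7.1% of those compared, and 2-fold or more lower for 1092, 13%. Many of these differences also separate the tables by their annotation, as the plot of the 2 libraries shows. The het table shares its rows with Sall4 KO replicate 1. The add-back table has 23234 rows and forms a set with 5 others of 23234 or 23235 rows: KO plus mutant replicate 1, the Sall1 and Sall4 double knockout (DKO), its control, Sall1 het and Sall1 KO. The symbols of this set are not all the same: Dynlt1e is listed in it only for KO plus wild type and KO plus mutant replicate 1. A symbol was therefore marked as separated by table set where Sall4 KO replicate 1 lay 2-fold or more beyond all 5 of those tables, a rule added after the data were seen that uses neither compared library. A symbol missing from any of these tables could not be marked and counts as not separated. The mark was met by 773 symbols, and by 474 of the 1092 lower and 173 of the 595 higher symbols in the direction of the call, against 1.82% of the symbols within 2-fold in either direction. Because the mark reads Sall4 KO cells on one side, a gene that is low or high in KO cells only can meet it too. For such a gene the mark alone cannot tell annotation from SALL4 loss.

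**Figure D1:**
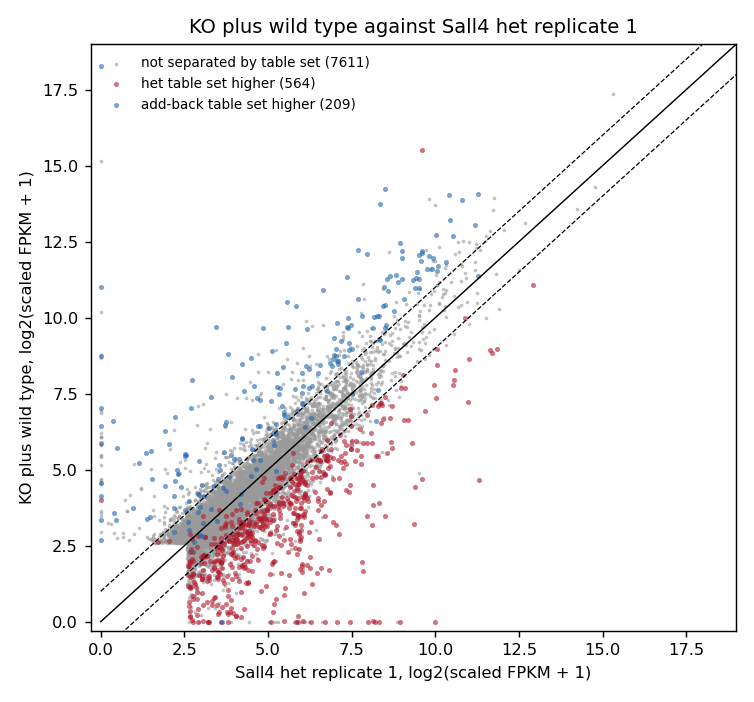
Each point is 1 of 8384 symbols, with log2(scaled FPKM + 1) in Sall4 het replicate 1 on the horizontal axis and in KO plus wild type on the vertical axis. The solid line marks equal values, the dashed lines mark 2-fold, and colours mark the 564 and 209 symbols that the other tables place 2-fold apart by table set. Red points fill much of the area below the lower dashed line and blue points much of the highly expressed area above the upper one.

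Zeros of small RNAs came first among the differences checked against the table layout. Among the symbols compared, 37 are listed at 0 in KO plus wild type, 30 of them predicted genes, pseudogenes or small RNAs, and 36 are listed at 0 in the het library, 35 of them of those classes. The highest values opposite a 0 in KO plus wild type were those of Mir295 (1117 in het), the histone gene Hist1h2ap (544), Mir5136 (503), Mir294 (349) and Mir291b (322). The miR-290 cluster encodes the most abundant microRNAs of mouse ES cells, which promote their fast cell cycle. Mature sequences of the cluster from RefSeq (GRCm38.p6) are shown because they are the RNAs a reader would miss first in the add-back table. Capitals mark the seed, bases 2 to 8, which directs target pairing.
mmu-miR-291a-3p: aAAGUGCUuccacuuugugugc
mmu-miR-294-3p: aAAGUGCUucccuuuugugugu
mmu-miR-295-3p: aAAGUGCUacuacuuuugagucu
mmu-miR-292a-5p: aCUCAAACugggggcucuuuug
mmu-miR-293-5p: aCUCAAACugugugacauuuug
mmu-miR-293-3p: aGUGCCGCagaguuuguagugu
The first 3 share the seed AAGUGCU and the next 2 share CUCAAAC, so several hairpins of the family give related mature RNAs. A hairpin value in a total RNA table is not a measure of its mature microRNA.

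These hairpins lie side by side on chromosome 7 (mm9). In the het table each has a row of its own, such as Mir295 at 3220773 to 3220842 with a value of 1117, Mir294 at 3220641 to 3220725 with 349, and Mir292 at 3219189 to 3219271 with 276. In the add-back table Mir291a, Mir291b, Mir292, Mir293, Mir294 and Mir295 all carry the interval 3218784 to 3221016 together with the host transcript D7Ertd143e, 7 rows in all, and the host row holds 154 while the 6 hairpins are at 0. KO plus mutant replicate 1 has the same layout, with D7Ertd143e at 203 and the hairpins at 0, and Sall4 KO replicate 1, with the het layout, lists Mir295 at 1721. Zeros were thus listed for wild-type and mutant add-back cells alike, and values above 0 for both het and KO cells in the other layout, so no expression difference is read from these hairpins. The layout does not always give 0: Mir291b was at 11.7 in DKO and 65.1 in its control, and Mir5136, which lies on another chromosome and is not separated by table set, was at 702 in Sall1 het.

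By a criterion that uses neither compared library, 33 symbols listed in both tables were at 0 in all 5 other add-back tables while Sall4 KO replicate 1 was at 1 or more. In KO plus wild type 30 of the 33 are also at 0, and the exceptions include Mir210 and Mir5130, at 13.7 and 13.8. In the other direction 22 symbols were at 0 in Sall4 KO replicate 1 and at 1 or more in all 5 add-back tables, of which 15 are at 0 in the het library. Among the symbols compared these flags cover 13 and 15. Of the 37 zeros in KO plus wild type 10 carry the flag, and so do 10 of the 36 in het, so the criterion accounts for a minority of the zeros. The highest values opposite a 0 in het belonged to small nucleolar RNAs (snoRNAs), which guide ribosomal RNA modification. Snord64 was at 286920 in KO plus wild type and at 5411 or more in the 5 other add-back tables, but at 0 in Sall4 het and Sall4 KO replicate 1. Snord42a (33064), Snord4a (1859), Snord111 (1069) and Snord53 (401) followed. FPKM divides by a very short length for these genes, and no fold is given against a listed 0.

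Set against all other libraries, KO plus wild type was nearest to KO plus mutant replicate 1. Over 8732 symbols listed in all 11 tables at 5 or more in at least 1 of 5 Sall4 libraries, the median absolute log2 difference from KO plus wild type was 0.15 for KO plus mutant replicate 1. It was 0.28 for Sall1 het, 0.29 for Sall1 KO, 0.36 for the DKO control and 0.39 for DKO, all of the add-back table set. For the libraries of other tables it was 0.38 for KO plus mutant replicate 2, 0.40 for Sall4 KO replicate 2, 0.41 for Sall4 het replicate 2, 0.44 for Sall4 het replicate 1 and 0.48 for Sall4 KO replicate 1. The het libraries themselves differed from each other by 0.46, and Sall4 het replicate 1 differed from Sall4 KO replicate 1, its partner in annotation, by 0.27.

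By the median, KO plus wild type lay 0.44 and 0.41 from the het libraries, which lay 0.46 apart. Other measures over the same symbols order them differently: 19.2% and 16.5% of symbols were 2-fold or more from het replicates 1 and 2, against 17.1% between the het libraries, and Pearson's r across genes was 0.827 and 0.869, against 0.883 between the het libraries. By the median, KO plus wild type was nearer to each het than to the KO of replicate 1, while the KO of replicate 2 (0.40) and the het of replicate 2 (0.41) could hardly be told apart by this measure. Without the symbols separated by table set, 7920 remained, and the distance was 0.39 to Sall4 het replicate 1, 0.38 to het replicate 2, 0.43 to KO replicate 1, 0.37 to KO replicate 2 and 0.15 to KO plus mutant replicate 1. These distances all share KO plus wild type, so they are descriptions and were not tested against each other.

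**Figure D2:**
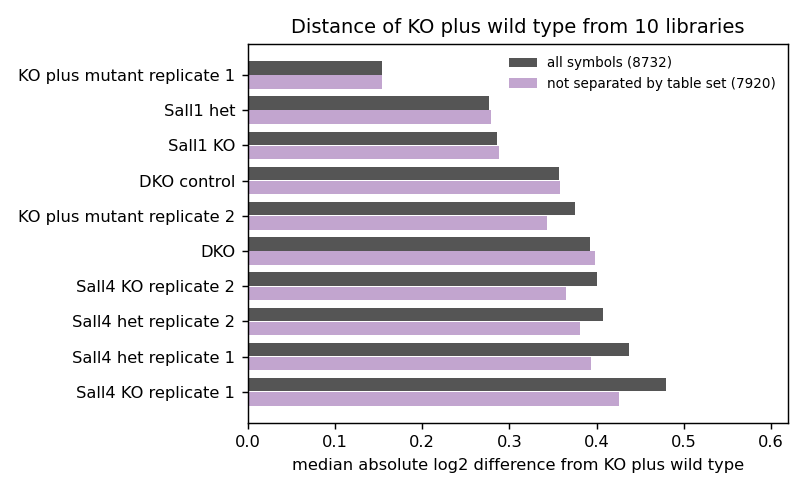
Bars give the median absolute log2 difference between KO plus wild type and each of 10 libraries, over 8732 symbols (dark) and over the 7920 not separated by table set (light). KO plus mutant replicate 1 stands nearest at 0.15 and Sall4 KO replicate 1 farthest at 0.48, and the light bars of the Sall4 het and KO libraries lie between 0.37 and 0.43.

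Sall4 itself (chromosome 2, 168573831 to 168592701 in the add-back table, mm9) was at 97.4 in KO plus wild type. It was at 196 and 64.2 in the libraries labelled Sall4 het, so the add-back value lies between them, and the log2 ratios were -0.73 and 0.78. The libraries labelled Sall4 KO stood higher, at 358 and 218, which goes against their label, and KO plus mutant stood at 77.4 and 161. The deleted exons are not named in the sources used here, and a value for the whole gene can hold undeleted parts and the transgene, so it checks no label. The gene is separated by table set, at 17.6 to 109 in the 5 other add-back tables. Directions given below are those of the libraries as they are labelled.

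Sall1, the family member that can pair with SALL4, was at 48.8 in KO plus wild type against 27.1 and 37.8 in het, 49.7 and 67.9 in the libraries labelled KO and 43.9 and 28.5 in KO plus mutant. Its ratio to het replicate 1 was 1.09, and to het replicate 2 it was 0.54. Sall2 was low, at 2.97 against 1.83 and 2.26. Sall3 was below 1 in KO plus wild type (0.24) and in both het libraries (0.13 and 0.23). Of the TET dioxygenases, Tet1 was at 15.6 in KO plus wild type, between the het values of 27.5 and 11.5. Tet2 was at 3.64 against 6.57 and 4.31, and Tet3 at 0.94 against 1.30 and 0.38. None of the 3 was 2-fold from either het library.

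ES cell identity was checked first by markers. All 8 ES markers (Pou5f1, Sox2, Nanog, Zfp42, Esrrb, Klf4, Utf1 and Dppa5a) were at 5 or more in both libraries, with summed values of 4813 in KO plus wild type and 2882 in het replicate 1. Of 8 fibroblast markers, 1 was at 5 or more in KO plus wild type and 2 in het, with sums of 11.1 and 17.2, and Dcn was at 0 in het. The 6 primitive endoderm markers summed to 2.31 and 3.91, the 4 trophoblast markers listed in both tables to 1.99 and 4.51, and the 4 neural markers to 1.05 and 1.70, with Olig2 at 0 in both. None of those 14 reached 5. In bulk samples, fewer cells of a type and less RNA per cell cannot be told apart.

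Most core pluripotency genes lay within 2-fold of het, as did 79.9% of all symbols compared. Pou5f1, the central ES cell factor, was at 453 against 488 and 706, and Zfp42, a marker of the naive state, at 462 against 491 and 503. Sox2, the partner of POU5F1, was at 338 against 214 and 212, above both het libraries by less than 2-fold. Of 17 core genes, 2 were 2-fold higher, 1 was lower and 14 were within 2-fold, with a median log2 ratio of 0.39 beside -0.01 over all symbols compared. Dppa5a, an RNA-binding ES cell protein, was at 2725 against 1154 and 2080, and Dppa4, a chromatin factor, at 115 against 56.1 and 121. Trim28, the co-repressor that silences retroelements, was the lower gene, at 397 against 986 and 969. Trim28 was at 1009 and 963 in the libraries labelled KO and at 318 and 643 in KO plus mutant. The value in KO plus wild type is thus below every Sall4 library except the KO plus mutant of its own table set. DKO (379), its control (503), Sall1 het (562) and Sall1 KO (586) were also below all het and KO values. Every table of the add-back set was therefore low for Trim28, although the mark of 2-fold was not met.

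Of 17 naive genes, 3 were higher, 2 lower and 12 within 2-fold (median 0.09). Nanog, the homeobox factor of the naive state, was at 587 in KO plus wild type. It was at 138 and 397 in het, 88.9 and 208 in the libraries labelled KO, and 386 and 233 in KO plus mutant. KO plus wild type was thus the highest of the 7, by a log2 ratio of 2.35 to het replicate 1 and 0.75 to het replicate 2, and the gene is separated by table set. Dppa3, which shields methylation in the egg and early embryo, was at 101 in KO plus wild type, between the het values of 47.7 and 183. The libraries labelled KO stood at 2.11 and 3.58 and KO plus mutant at 26.4 and 12.7. KO plus wild type was thus inside the het range and KO plus mutant was not. In the same table set, DKO (109.5), its control (58.4), Sall1 het (81.1) and Sall1 KO (72.9) were inside that range too. Dppa3 is also separated by table set, and for this gene the mark alone cannot tell annotation from SALL4 loss. Sall4 het replicate 1 (47.7) and Sall4 KO replicate 1 (2.11), which share their rows, differed for it. Gbx2, a LIF target, was at 5.81 against 2.24 and 3.98, while Tbx3 and Socs3 were lower, at 6.26 against 26.9 and 11.97 and at 37.5 against 98.4 and 55.5.

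Differences that hold against both het libraries and are not separated by table set are less bound to the annotation, but some of them still follow the table set. Among 8296 symbols also listed in the table of het replicate 2, KO plus wild type was 2-fold or more above both het libraries for 197 (2.37%) and below both for 514 (6.2%). Of the 7611 symbols not separated by table set, 420 (5.52%) were higher than het replicate 1 and 616 (8.09%) lower, and 116 and 228 of them were 2-fold beyond both het libraries, of which 64 and 199 were neither predicted genes, pseudogenes nor small RNAs. Against het replicate 2 alone, 388 of 8440 symbols (4.6%) were 2-fold higher and 1112 (13.2%) lower. The 12 largest ratios in each direction of this kind are described next, by a rule added after the data were seen.

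On the higher side, Lcmt2, an enzyme that modifies phenylalanine tRNA (chromosome 2, 120963027 to 120966434 in mm9), was at 403 in KO plus wild type. It was at 27.3 and 84.5 in het, 14.3 and 24.7 in the libraries labelled KO, and 140 and 114 in KO plus mutant. The lower het value of 27.3 (FPKM) lay close to the higher KO value of 24.7 (RPKM), so no order of het and KO is read from them. Cxcr2, a chemokine receptor, was at 213 against 23.04 and 7.41 in het, 13.3 and 17.7 in KO, and 93.3 and 82.8 in KO plus mutant. Exosc2, a subunit of the RNA exosome, was at 857 against 75.3 and 153 in het, 61.4 and 77.8 in KO and 402 and 112 in KO plus mutant. Synrg, an adaptor of clathrin traffic, was at 80.6 against 6.94 and 9.49, with KO at 5.30 and 5.84 and KO plus mutant at 32.4 and 21.4. In all of these, KO plus wild type was the highest of the 7 Sall4 libraries and the libraries labelled KO were not above the higher het value. Sall1 het and Sall1 KO, which are not labelled as given SALL4A, also exceeded both Sall4 het values for Cxcr2 (70.2 and 95.3) and Exosc2 (224 and 276). The DKO and its control were lower, at 21.5 and 17.2 for Cxcr2 and 97.7 and 93.2 for Exosc2.

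The others of the 12 were Chrna1, the muscle acetylcholine receptor subunit (log2 ratio 4.12), Ppp1r16b (3.62), the sialidase gene Neu3 (3.49), Tnfsf10, which encodes the death ligand TRAIL (3.29), the leptin receptor gene Lepr (3.28), Mpv17l (3.21), Trim43b (3.18) and the mitochondrial carrier gene Sfxn4 (3.12). Lepr was at 15.3 in KO plus wild type, 0.92 and 1.08 in het, 0.54 and 0.99 in KO, and 5.99 and 3.81 in KO plus mutant. Tnfsf10 was at 13.7, with 0.70 and 1.17 in het, 0.34 and 0.37 in KO, and 4.74 and 4.12 in KO plus mutant. In both, KO plus mutant also stood above both het libraries. In the 5 other tables of the add-back set Lepr ran from 1.26 to 5.99, Trim43b from 1.84 to 7.79 (het 1.41 and 0.63) and Synrg from 9.83 to 37.2. For these 3 genes every table of the add-back set therefore lay above both het and both KO values, although the mark of 2-fold was not met. Trim43b belongs to a family of close copies, and reads of its members may be split between them.

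On the lower side, Braf, the kinase that links RAS to MEK (chromosome 6, 39553236 to 39675462 in the add-back table, mm9), was at 3.84 in KO plus wild type. It was at 55.4 and 68.6 in het, 7.45 and 8.04 in the libraries labelled KO, and 4.85 and 31.0 in KO plus mutant. The add-back value was below both KO values and 2-fold or more below both het values. The het row of Braf starts at 39523871, further out than that of the add-back table. Arhgap27, a GTPase-activating protein (chromosome 11, 103192797 to 103225006), was at 3.01 against 26.8 and 34.1 in het. The libraries labelled KO stood at 2.28 and 1.64 and KO plus mutant at 1.72 and 1.47, so all 5 libraries of KO cells lay below both het libraries. Slc4a5, a bicarbonate transporter, had the same layout, at 1.77 against 18.1 and 13.9, with KO at 2.10 and 1.23 and KO plus mutant at 0.52 and 2.80. Tables of cells not labelled Sall4 KO were as low. Arhgap27 was at 1.42 in the DKO control, 2.70 in Sall1 het and 3.06 in Sall1 KO, Braf at 3.50, 7.10 and 7.62, and Slc4a5 at 3.45, 3.34 and 3.68. Of the 11 libraries, only those labelled Sall4 het exceeded 4 for Arhgap27 and Slc4a5, and for Braf only those and KO plus mutant replicate 2 exceeded 10.

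Saal1 was different, at 5.78 in KO plus wild type and 4.46 in KO plus mutant replicate 1 against 46.7 and 50.7 in het, with KO at 26.6 and 30.5 and KO plus mutant replicate 2 at 46.0. There the low values were those of the add-back table set, in which the other 4 tables ran from 6.52 to 12.3. Dok2, a docking protein of tyrosine kinase signalling, was at 0.97 against 12.9 and 11.3, and Arap1, which acts on ARF GTPases, at 3.42 against 36.9 and 19.4. Arap1 also followed the table set, at 3.02 to 7.80 in the 5 other add-back tables. It was at 12.5 or more in het, KO and KO plus mutant replicate 2. The remaining genes were Dynlt1e (-4.34), the glutathione-cleaving enzyme gene Ggt1 (-3.22), Hist4h4 (-2.98), Trim12a (-2.78), Amd2 (-2.69) and Ubxn11 (-2.52), as log2 ratios. Ubxn11 followed the table set too, at 1.41 to 4.62 in the 5 other add-back tables and 6.69 or more in het and KO. Dynlt1e is not listed for DKO, its control, Sall1 het or Sall1 KO, so the mark could not be read for it. Its het values, 72.0 and 140, are also those listed for Dynlt1f, which is marked. Dynlt1e, Hist4h4, Trim12a and Amd2 have close copies in the genome, so their values are uncertain. Amd2 (chromosome 10) starts at 40007263 in the add-back table and at 35428496 in the het table. Dynlt1e (chromosome 17) starts at 6648832 and at 6853658. The ratios of Amd2 and Dynlt1e may therefore not compare the same copy.

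**Figure D3:**
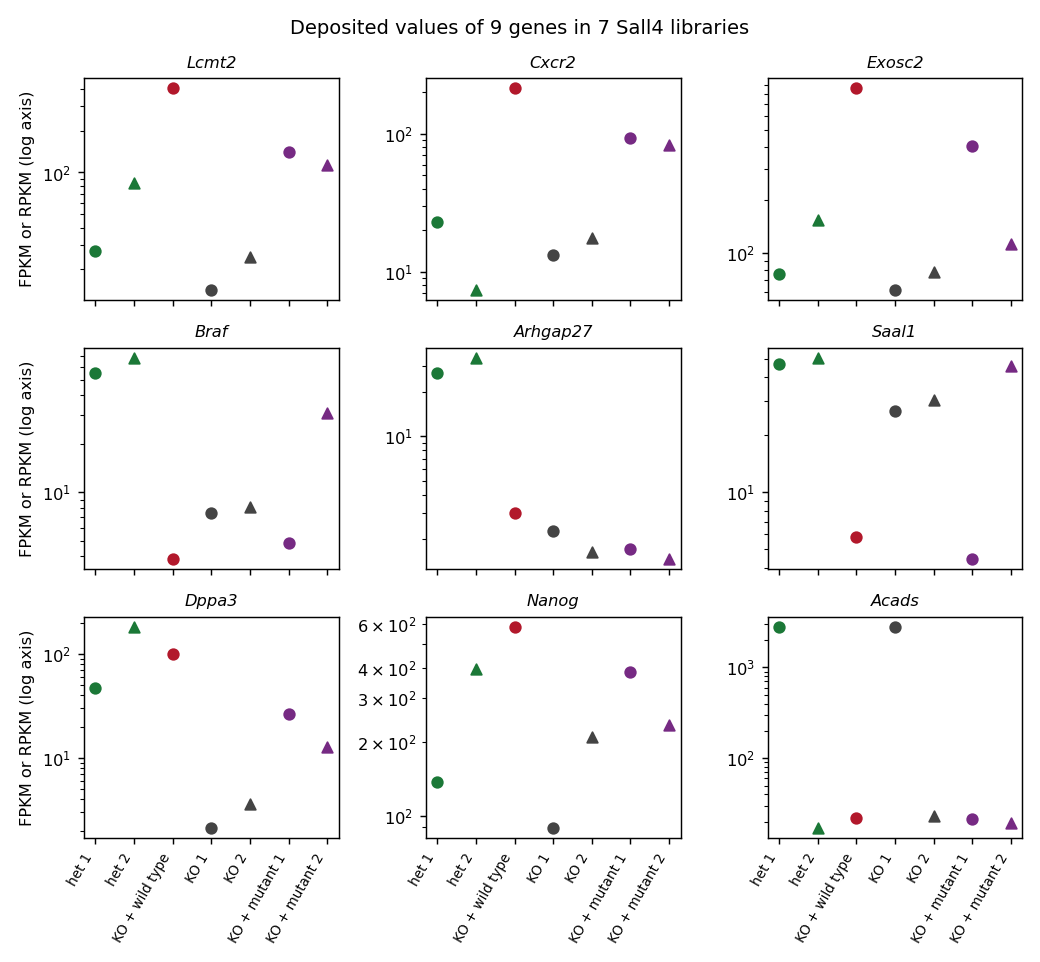
Deposited values of 9 genes in 7 libraries on log axes, with circles for FPKM tables and triangles for RPKM tables, and green for het, red for KO plus wild type, grey for KO and purple for KO plus mutant. Lcmt2, Cxcr2 and Exosc2 are highest in KO plus wild type, Braf and Arhgap27 are near the KO values, Dppa3 lies between the het values, and Acads is high only in the tables of het and KO replicate 1.

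The largest ratios to het replicate 1 alone were mostly separated by table set. Among genes above 0 in both tables with het replicate 2 on the same side, all 12 of the largest lower ratios are marked, and 10 of the 12 largest higher ones. Fyb, an adaptor of immune cells, was at 0.01 in KO plus wild type and 309 in het replicate 1, but at 0.15 in het replicate 2. Dennd1b stood at 2.08 against 123 and 2.42, Vps8 at 1.83 against 95.6 and 2.69, and Cnot6, a subunit of the CCR4-NOT deadenylase, at 18.8 against 744 and 38.4. The value of Sall4 KO replicate 1 was as high as that of its het partner or higher for Dennd1b (241), Vps8 (97.3) and Cnot6 (1524). Acads, a mitochondrial fatty acid enzyme, has a larger ratio (-6.63) but was left out by the condition on het replicate 2, and was chosen after its values were seen. It was at 22.3 in KO plus wild type against 2772 and 17.0 in het, with 2793 in Sall4 KO replicate 1 and 17.0 to 33.9 in all other tables. Dynlt1f, Cd59b, Gadl1, Adarb2, Unc13d, Cdk5rap2, Gclm and Fam166a complete the 12.

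Unc13d, Cd59b, Adarb2 and Fam166a were high in both het libraries and low in all 6 tables of the add-back set. KO plus mutant replicate 2, of another table set, was high for Unc13d (474), Cd59b (654), Adarb2 (73.7) and Fam166a (399). Unc13d, a secretion factor, was at 0.84 in KO plus wild type against 72.8 and 805, and at 0.38 to 2.92 in the 5 other tables of the add-back set. The higher genes were led by H2-T23, which encodes a nonclassical MHC class I molecule, at 759 against 10.98 and 57.9, with KO at 6.26 and 14.2 and KO plus mutant at 323 and 47.3. Rpl39, a ribosomal protein gene, was at 12343 against 359 and 1736. Tapbpl, Zc3h12a, Tyr, Ripply3, Cd300a, Slc7a14, Rpl17 and Uqcrb are also marked, and Chrna1 and Lcmt2 are the 2 that are not. Uqcrb, a subunit of respiratory complex III, was at 748 against 51.7 in het replicate 1 but 614 in het replicate 2.

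Of the lower symbols, 50.9% share their listed interval in the het table with another row, against 43.5% of the higher symbols and 38.6% of those within 2-fold. In the add-back table these shares were 23.7%, 27.2% and 16.0%. A shared interval is one that the table gives to a group of overlapping rows. Its part in the differences was not tested.

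Several gene classes had medians far from that of all symbols. Of 77 cytosolic ribosomal protein genes, 56 were 2-fold higher in KO plus wild type and 4 lower, with a median log2 ratio of 1.50 against het replicate 1 and 0.65 against het replicate 2. Rps28 was at 15147 against 1502 and 3301, and Rps27a at 5057 against 542 and 1826. Rps27 went the other way, at 52.2 against 689 and 3197. Many of these genes have processed copies in the genome, and 40 of the 77 are separated by table set. Among the 37 that are not, 21 were higher and 1 lower.

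Of 72 nuclear genes of oxidative phosphorylation, 26 were higher and 5 lower, with a median of 0.70 against het replicate 1 and 0.00 against het replicate 2. Ndufb4, of complex I, was at 299 against 46.9 and 139. Atp5k, of ATP synthase, was at 1782 against 383 and 1206. Cox7b, of complex IV, was lower, at 459 against 4072.5 and 6569.9. Only 1 of the 72 was 2-fold above both het libraries. Among the 60 not separated by table set, 16 were higher and 3 lower.

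Replication-dependent histone genes, whose mRNAs lack a poly(A) tail, had the lowest median of the lists with at least 5 members compared. Of 54, 41 were 2-fold lower and none higher than het replicate 1 (median -1.46), but against het replicate 2 only 1 was lower and 8 were higher (median 0.30). Hist1h2ac was at 1.06 against 49.2 and 0.65, Hist1h2aa at 1.81 against 35.3 and 1.96, and Hist2h2ab at 1.31 against 22.2 and 0.98. In each of these the het libraries lay on opposite sides of the add-back value or at its level. Of the 42 not separated by table set, 29 were lower. Histone genes are near-identical copies, so values of single genes are uncertain.

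Glycolysis and hypoxia genes had the same split. Of 27, 11 were lower and 3 higher than het replicate 1 (median -0.80), and 1 was lower and 1 higher than het replicate 2 (median -0.14). Ndrg1, a hypoxia-induced gene, was at 6.57 against 48.1 and 9.43, Vegfa, the angiogenic growth factor gene, at 7.94 against 56.3 and 12.1, and Pfkp, a phosphofructokinase gene, at 68.5 against 249 and 137. Gapdh went the other way, at 1430 against 223 and 686. It was at 220 in Sall4 KO replicate 1 and at 1720 to 4277 in the 5 other add-back tables. Of the 24 not separated by table set, 10 were lower and 1 higher. No mitochondrially encoded gene of the list is in both tables.

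**Figure D4:**
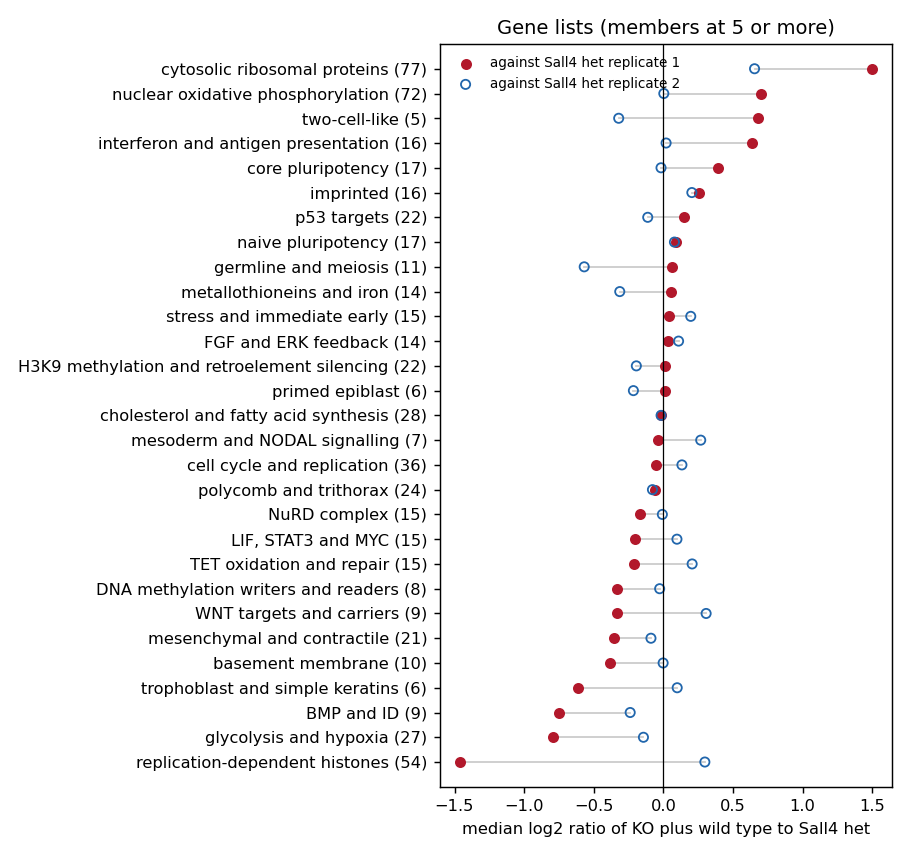
Median log2 ratio of KO plus wild type to Sall4 het replicate 1 (red) and replicate 2 (open blue) for each gene list with at least 5 members at 5 or more, with the number of members in brackets. Ribosomal proteins run from 0.65 to 1.50 and histones from -1.46 to 0.30 depending on the het library, while naive pluripotency stays at 0.09 and 0.08.

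The NuRD complex, the partner of SALL4, had 11 of 15 subunits within 2-fold of het, a share near the 79.9% of all symbols, with 2 higher and 2 lower (median -0.17). Zmynd8, a chromatin reader that associates with NuRD, was at 329 against 63.1 and 104, and the other Sall4 libraries lay between 62.6 and 179. Cdk2ap1 was at 118 against 48.8 and 80.5. The methyl-CpG family members Mbd2 and Mbd3 were lower, at 4.58 against 13.0 and 9.35 and at 51.8 against 127 and 97.5. Cdk2ap1 was at 108 to 274 in the 5 other add-back tables, and at 80.5 or less in het and KO. Mbd3 was at 47.0 to 87.1 in those 5 tables, and at 97.5 or more in het and KO. Cdk2ap1 and Mbd3 thus followed the table set, although the mark of 2-fold was not met. Against het replicate 2, Zmynd8 (log2 ratio 1.83) was the 1 higher member.

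Among DNA methylation genes, 3 of 8 writers and readers were lower and none higher (median -0.33), beside 13% lower of all symbols. Against het replicate 2, 1 of the 8 was lower and the median was -0.03. Dnmt3a, a de novo methyltransferase, was at 10.8 against 98.5 and 41.2, with KO at 58.1 and 27.4 and KO plus mutant at 8.27 and 25.5, and it is separated by table set. Of 15 TET oxidation and repair genes, 14 were within 2-fold. Gadd45a, a stress gene linked to active demethylation, was the exception, at 21.6 against 88.5 and 53.6. It was at 51.1 and 34.4 in the libraries labelled KO and 37.8 and 30.9 in KO plus mutant, so KO plus wild type was the lowest of the 7.

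Of 22 silencing genes of the H3K9 list, 17 were within 2-fold, a share near the 79.9% of all symbols, with 4 lower and 1 higher (median 0.01). Wiz, a zinc finger partner of G9a, was at 9.32 against 66.9 and 77.8, and Atrx, a remodeller of repeat chromatin, at 20.1 against 65.3 and 58.1. Cbx3, which encodes HP1 gamma, was the higher gene, at 189 against 41.4 and 94.6. All 3 are separated by table set.

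Of 9 WNT pathway genes, 2 were lower, beside 13% of all symbols. Tcf7l1, the repressor that limits pluripotency genes downstream of WNT (chromosome 6, 72576373 to 72738950), was at 21.9 in KO plus wild type, 79.1 and 67.1 in het, and 68.6 and 69.0 in the libraries labelled KO. KO plus mutant stood at 21.7 and 23.1, so all 3 add-back libraries, in FPKM and RPKM tables, lay below all het and KO libraries. The DKO, its control, Sall1 het and Sall1 KO ran from 23.04 to 30.5. Porcn, which acylates WNT ligands, was at 7.13 against 28.6 and 14.4.

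Of 9 genes of the BMP list, 2 were 2-fold lower (median -0.75), beside 13% of all symbols. Id3, an inhibitor of differentiation factors, was at 26.5 against 68.9 and 65.2, with KO at 130 and 49.1 and KO plus mutant at 14.6 and 14.7. Id1, of the same family, was at 23.1 against 54.1 and 88.1 (log2 ratio -0.93 to het replicate 1), with KO at 171 and 117 and KO plus mutant at 19.5 and 22.9. The 3 add-back libraries lay below all het and KO libraries for both. Both genes are separated by table set.

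Most members of other lists were within 2-fold of het, as were 79.9% of all symbols compared. Of 36 cell cycle genes 31 were within 2-fold, but Cdk1, the mitotic kinase, was at 55.5 against 214 and 206 and Tyms, of thymidylate synthesis, at 30.1 against 94.0 and 90.1. Of 28 cholesterol and fatty acid genes 24 were within 2-fold, with Idi1 and Fdps higher (log2 ratios 1.37 and 1.14) and the regulator gene Srebf1 lower (-1.56). Of 22 p53 targets 20 were within 2-fold, with Ei24 higher (1.22) and Rrm2b lower, at 1.89 against 69.8 and 73.3. Of 16 imprinted genes 15 were within 2-fold and Peg10 was lower (-1.11). Of these genes Cdk1, Rrm2b, Fdps and Peg10 are separated by table set, and Tyms, Idi1, Srebf1 and Ei24 are not. Tyms was nonetheless at 32.1 to 47.5 in the 5 other tables of the add-back set, and at 72.8 or more in het and KO. Srebf1 was at 11.5 to 16.0 in those 5 tables, and at 31.2 or more in het and KO. Idi1, Fdps, Srebf1 and Ei24 were not 2-fold from het replicate 2 (log2 ratios 0.37, 0.28, -0.78 and 0.33). Among interferon and antigen genes 3 of 16 were higher, namely H2-T23, Isg15 (1.58) and Ifitm1 (1.31), beside 7.1% of all symbols. H2-T23 is separated by table set, and Isg15 and Ifitm1 were not 2-fold from het replicate 2 (log2 ratios 0.24 and -0.0882). The keratin genes Krt19 and Krt8, of simple epithelium, were lower (-1.45 and -1.03) and so was the matrix gene Sparc (-1.74), and none of the 3 was 2-fold from het replicate 2. Eif2s3y, a Y-linked translation factor gene, was at 0 in KO plus wild type, 12.3 and 33.1 in het, 0.04 and 1.39 in KO and 1.34 and 0.28 in KO plus mutant.

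To read how far add-back cells return toward het at genes that differ on SALL4 loss, genes were chosen only from replicate 2 of the libraries labelled KO and het and then read in the replicate 1 libraries and KO plus wild type. Of 868 genes 2-fold lower in that KO library, 386 were among the symbols compared. Their median log2 ratio to het replicate 1 was -0.63 in Sall4 KO replicate 1, -0.48 in KO plus mutant replicate 1 and -0.20 in KO plus wild type. Of 628 genes 2-fold higher, 341 could be read, at medians of 0.35, 0.07 and -0.10. Over all symbols, 4.1% and 4.51% were 2-fold higher and lower in Sall4 KO replicate 1, and 7.7% and 13.9% in KO plus mutant replicate 1.

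The median of KO plus wild type was nearer to 0 than that of Sall4 KO replicate 1 in both directions, but its spread was wide. Among the 386, 193 were within 2-fold of het in KO plus wild type, 83 were 2-fold higher and 110 lower. In Sall4 KO replicate 1, which shares the annotation of het, 272 were within 2-fold, 16 higher and 98 lower. Without the genes separated by table set, 286 and 298 genes gave medians of -0.65 and 0.31 in Sall4 KO replicate 1, -0.40 and 0.16 in KO plus mutant replicate 1, and -0.09 and -0.03 in KO plus wild type. The readings share het replicate 1 as their reference, and reading requires a value of 5 in het replicate 1 or KO plus wild type, so genes low in both are missing. That filter admits a gene through a high KO plus wild type value but not through a high KO or mutant value. With genes at 5 or more in het replicate 1 alone, an alternative added after the data were seen, 349 lower and 302 higher genes gave medians of -0.67 and 0.31 in Sall4 KO replicate 1, -0.59 and -0.08 in KO plus mutant replicate 1, and -0.32 and -0.26 in KO plus wild type. The higher genes then lay nearly as far below 0 in KO plus wild type as above it in Sall4 KO replicate 1.

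**Figure D5:**
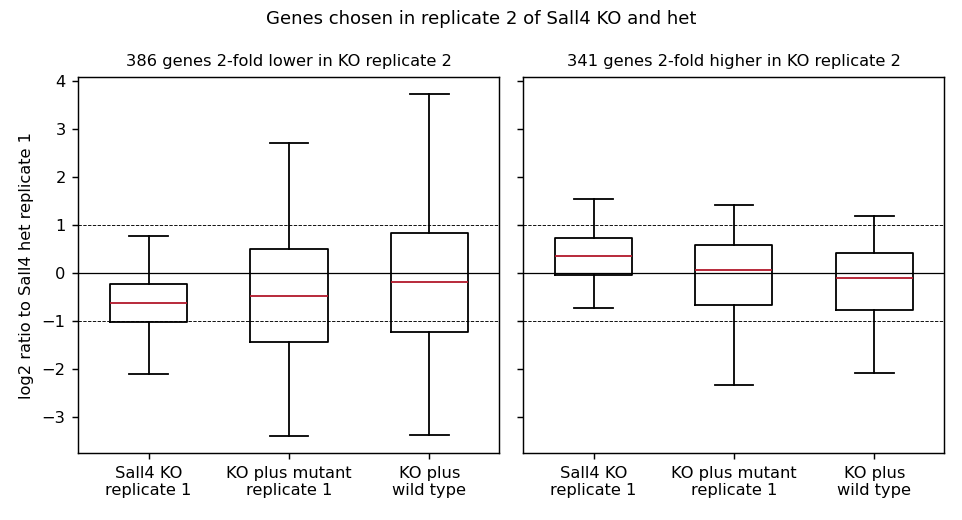
Boxes give the median and quartiles, and whiskers the 5th and 95th percentiles, of log2 ratios to Sall4 het replicate 1 for 386 genes lower (left) and 341 genes higher (right) in Sall4 KO replicate 2. The medians run from -0.63 in Sall4 KO replicate 1 to -0.20 in KO plus wild type on the left and from 0.35 to -0.10 on the right, and the boxes of KO plus wild type span both sides of 0.

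To set the add-back differences against a spread between libraries, limma was fitted to all 7 Sall4 libraries with terms for group and for table unit. The lone KO plus wild type library is then assumed to vary like the other groups. The term for table unit puts the FPKM libraries of both table sets together, so the fit does not adjust for table set. The contrast of KO plus wild type with het therefore still holds differences of annotation. Of 11709 symbols, 1 (0.00854%) was called at an adjusted p of 0.05, with 302 higher and 340 lower at an unadjusted p under 0.05. The call was Snord111 (limma adjusted p 0.0428), at 1069 in KO plus wild type and at 0 and 59.6 in het. It is listed at 0 in 5 of the 11 tables, so no fold is given. Limma made 0 calls without the term for table unit, without trend and without either het library. Of the genes named above, Trim43b (3.09 ± 0.28), Slc7a14 (3.58 ± 0.34) and Tnfsf10 (3.12 ± 0.30) came next, each with a limma adjusted p of 0.324. Lepr (3.17 ± 0.37), Synrg (3.35 ± 0.40) and Arhgap27 (-2.79 ± 0.35) had limma adjusted p of 0.425, 0.425 and 0.512. Braf (-3.02 ± 0.83), Tcf7l1 (-1.51 ± 0.28) and Lcmt2 (3.59 ± 0.63) did not pass either, each with an adjusted p of 0.718. Without KO plus mutant replicate 1 the fit called 716 symbols and without KO plus mutant replicate 2 it called 694, as the spread was then estimated from the het and KO pairs alone.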

How the data were processed

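Members and gene lists were chosen with earlier results of these data known. Per the submitters' processing notes the series used TopHat, Bowtie 0.12.7, SAMtools and MACS 1.4.2 on build mm9. Neither the tools behind these tables nor the RNA library protocol is named in the sources used here. The deposited FPKM values (replicate 1 and add-back) and RPKM values (replicate 2) are per the file headers, and give no depth. Of 37883 rows for het replicate 1, 1225 name no gene and were left out, and in the table of KO plus mutant replicate 2, 18 symbols were set by Ensembl identifier. Ratios between 2 libraries carry no test. The limma 3.58.1 fit (R 4.3.3, lmFit, eBayes with trend, two-sided, Benjamini-Hochberg adjustment over all symbols) took symbols whose scaled value reached 1 in 2 or more of the 7 libraries. Scripts were tested on simulated data. Named were the SALL and TET genes, the 12 largest ratios per direction above 0 in both tables with het replicate 2 on the same side, the 5 highest values opposite a 0, and among each list members with the largest ratios. Markers and genes singled out in the text were added. Some genes the rule names are not reported here. Some tables of the series were used only to mark symbols by table set, and chromatin samples were not analysed here. Ratios were computed in Python 3.11.15 (numpy 2.4.6, pandas 2.3.3) and drawn with matplotlib 3.10.9.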

Additional observations from a re-analysis of the deposited data

How the results depend on the processing

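The counts of higher and lower symbols (595 and 1092) stayed within 1.5 times under every scaling tried, with exceptions below for a pseudocount, filters and the het library. The share of calls that were higher, 35.3%, was 20.5% unscaled and 45.7% with upper-quartile scaling (404 against 1566, and 760 against 903). Lower calls were 722 with a pseudocount of 5, 681 at 5 or more in both libraries, 660 at 20 or more, 674 for symbols with spans within 1 kb and 616 without those separated by table set. With het replicate 2 in place of replicate 1, higher calls were 388. The median absolute log2 ratio was 0.49 unscaled, 0.48 with upper-quartile scaling and with a pseudocount of 0.1, 0.35 with a pseudocount of 5, 0.41 at 1 or more, 0.40 at 5 or more in both, 0.55 at 20 or more, 0.43 with matching spans, 0.42 against het replicate 2 and 0.40 without separated symbols. The causes were not tested. For genes lower in KO replicate 2 the median in KO plus wild type was -0.32 at 3-fold and -0.0866 without separated symbols, and at 5 or more in het replicate 1 alone it was -0.32, or -0.26 for genes higher in KO. The flag for zeros in the add-back table covers 21 symbols at 5 or more in the other annotation. Of 117 genes named and compared, 105 kept their sign against het replicate 2. Among 2-fold genes the sign turned for Acads (0.54), Dppa3 (-0.68), Hist1h2aa (0.0448), Hist1h2ac (0.41), Hist2h2ab (0.32), Ifitm1 (-0.0882) and Krt19 (0.39). Limma called 0 symbols without the replicate block (717 at an unadjusted p under 0.05), 0 without trend (626), 2 with a pseudocount of 0.1 and 3 without separated symbols. Leaving out each library gave 0 to 716 calls, with 0 for either het library, 2 for either KO library and 716 and 694 for the mutant libraries. Replicate numbers do not pair the libraries alike in all groups. Differences between replicates correlated over 11636 symbols at 0.58 for het and KO, but at 0.10 for het and mutant and 0.06 for KO and mutant. Depth is unknown, so low values have no counting error.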
